A study of Mus musculus with 16 samples.

Results

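Cytosolic ribosomal protein genes were examined in the chromatin of mouse embryonic stem cells (ESCs). They were taken by symbol as the protein-coding genes of GRCm38 named Rpl or Rps with a number (and at most an a, x or l after it), together with Rplp0, Rplp1, Rplp2 and Rpsa. The rule gave 81 of the 21000 genes with a curated RefSeq (NM) transcript. Of these, 50 encode proteins of the large ribosomal subunit and 31 of the small subunit, and they lie on 19 chromosomes. Another 2 symbols that match the rule, Rps4l and Rpl6l, have no NM transcript and were left out.

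The study compared R1 ESCs, a mouse line grown here without feeders, in 2 self-renewing cultures. LIF-ESCs received 100 units/ml of the cytokine LIF, and Myc-ESCs received 50 nM 4-hydroxytamoxifen (OHT) and no LIF. Per the study's methods the cells carry an exogenous MycER fusion, which OHT activates. The methods name a clone with a mutated Myc (MycT58AER) and a clone transfected anew. The paper introduces the first as its MycER cells and brings in the other to check for dependence on the clone. The labels do not say which was used for chromatin immunoprecipitation (ChIP). Both media held serum and vitamin C. H3K4me3, H3K27me3 and the Polycomb subunit Suz12 were each measured by ChIP-sequencing in 2 libraries a culture, and 4 input libraries complete the 16. The deposited result is 1 list of peaks for each culture and antibody. A value therefore has no replicate error, no test between the cultures was possible, and the depth of the libraries is unknown.

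Each eukaryotic ribosome joins a small (40S) subunit, which reads the mRNA, to a large (60S) subunit, which forms peptide bonds, and nearly every subunit protein is encoded by a single functional gene. These genes are transcribed at high rates in growing cells, and their mRNAs start with a run of pyrimidines, the 5' terminal oligopyrimidine (TOP) motif, through which growth signals control their translation. Ribosome production is a classical target of Myc. H3K4me3, trimethylation of lysine 4 of histone H3, marks active and poised start sites. H3K27me3 is laid down by Polycomb repressive complex 2, of which Suz12 is a core subunit, mostly at developmental genes in ESCs.

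Start-site sequences were available from RefSeq (GRCm38.p6) for 61 of the 81 members, at 73 start sites. To show the promoters behind the peaks, 80 bases around the start are given 5' to 3'. First come the members with the longest peaks (Rps24, Rplp0, Rpl24, Rpl22). Next are Rps28 and Rplp2, where the LIF-ESC peak was divided in Myc-ESCs and the peak at the start was much shorter. Then come 3 members with a long pyrimidine run (Rpl7a, Rpl27a, Rps18). Last are Rpl32l, which had no peak, and 3 duplicated members, whose peaks in LIF-ESCs were shorter than those of most members. For genes with several starts the most upstream is shown. Capitals mark the longest run of C and T, and the start site is base 51.
Rps24 (chr14:24490628-24490707, + strand): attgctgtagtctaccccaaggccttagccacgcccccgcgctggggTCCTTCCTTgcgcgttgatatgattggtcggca
Rplp0 (chr5:115559417-115559496, + strand): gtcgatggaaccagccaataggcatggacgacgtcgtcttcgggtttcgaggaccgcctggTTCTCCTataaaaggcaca
Rpl24 (chr16:55966225-55966304, + strand): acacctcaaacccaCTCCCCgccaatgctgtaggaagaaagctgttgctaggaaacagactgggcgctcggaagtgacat
Rpl22 (chr4:152324386-152324465, + strand): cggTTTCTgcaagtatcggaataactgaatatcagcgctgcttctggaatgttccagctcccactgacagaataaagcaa
Rps28 (chr17:33824533-33824612, - strand): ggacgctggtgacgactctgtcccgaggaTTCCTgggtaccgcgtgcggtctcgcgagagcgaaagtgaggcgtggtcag
Rplp2 (chr7:141447601-141447680, + strand): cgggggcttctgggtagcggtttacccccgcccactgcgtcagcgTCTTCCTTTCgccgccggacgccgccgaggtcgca
Rpl7a (chr2:26910757-26910836, + strand): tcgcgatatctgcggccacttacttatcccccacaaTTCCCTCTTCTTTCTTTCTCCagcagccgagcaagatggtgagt
Rpl27a (chr7:109519145-109519224, + strand): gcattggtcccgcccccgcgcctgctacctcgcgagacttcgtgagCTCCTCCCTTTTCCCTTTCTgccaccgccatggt
Rps18 (chr17:33955636-33955715, - strand): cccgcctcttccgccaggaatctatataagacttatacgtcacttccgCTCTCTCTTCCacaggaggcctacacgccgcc
Rpl10l (chr12:66284372-66284451, - strand): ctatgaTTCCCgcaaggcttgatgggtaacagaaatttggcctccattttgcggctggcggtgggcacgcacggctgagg
Rpl39l (chr16:10170178-10170257, + strand): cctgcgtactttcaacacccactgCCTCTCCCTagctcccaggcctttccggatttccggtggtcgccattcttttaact
Rpl3l (chr17:24727776-24727855, + strand): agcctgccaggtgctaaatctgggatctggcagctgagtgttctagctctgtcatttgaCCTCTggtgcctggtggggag
Rpl32l (chr10:20208389-20208468, + strand): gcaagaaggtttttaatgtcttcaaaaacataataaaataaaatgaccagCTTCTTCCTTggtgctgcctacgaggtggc

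Runs of pyrimidines near the start were frequent at members, but not all had a long one. A run of at least 8 pyrimidines on the sense strand, from 50 bases before the start to base 30 of the transcript, was found at 43 of the 73 start sites (58.9%), against 29.9% of 20315 NM start sites, 27.9% of the start sites of genes with H3K4me3 in both cultures and 32.4% of 71 start sites of mitochondrial ribosomal protein genes. Runs of at least 8 purines, counted the same way, were at 14 start sites of members (19.2%), at 31.2% of all and at 30.0% of those of genes marked in both cultures. The longest printed run, 21 bases in Rpl7a, began 14 bases before the annotated start. Since the bases searched include 50 before the start, a counted run need not lie in the mRNA and is not by itself a TOP motif. The run of Rpl26, for example, took up the first 14 bases searched, from 50 bases before the start, and ended upstream of the start. Bases farther upstream were not searched, so that run may be longer. The run of Rpl24 had 6 bases and that of Rps28 had 5, so that promoters of members with long H3K4me3 peaks were found with and without a long run.

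Motifs were searched in the 300 bases from 250 before to 50 after the start, on both strands. The Ets-family letters CCGGAA were at 34 of 73 start sites of members (46.6%), against 19.1% of all start sites, 25.4% of those of genes with H3K4me3 in both cultures and 59.2% of those of mitochondrial ribosomal protein genes. AAGATGG, the core of the YY1 motif, was at 11 (15.1%, against 6.33% of all and 6.46% of those of marked genes). Mitochondrial ribosomal protein genes had it at 18.3% of their start sites, so it was not particular to members. CACGTG, the E-box bound by Myc with Max, was at 8 start sites (11.0%), close to the 8.07% of all start sites and the 9.78% of start sites of genes with H3K4me3 in both cultures. These 8 belong to Rpl13a, Rpl14, Rpl19, Rpl23, Rpl34 and Rps19. The E-boxes of Rpl19 and Rpl23 lie nearest to a start site and are shown in capitals. They begin 19 and 3 bases before it, so that of Rpl23 spans the start.
Rpl19 (chr11:98026679-98026708, + strand): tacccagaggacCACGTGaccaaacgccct
Rpl23 (chr11:97782425-97782454, - strand): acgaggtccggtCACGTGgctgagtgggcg
GGGCGG (the Sp1 motif or GC box) was at 57.5% of members' start sites, above the 47.6% of all but below the 63.2% of genes with H3K4me3 in both cultures. TATAAA (the TATA box) was at 9.59%, below the 12.5% of all but above the 6.99% of marked genes, and GCGCATGC (the NRF1 motif) at 4.11%, against 3.66 and 4.92%. The promoters held a median of 21 CpG dinucleotides, against 14 for all start sites and 20 where genes had H3K4me3 in both cultures. Rpl32l had 3 and the first start site of Rpl3l had 2. A match is a description of these letters and does not show that a factor binds there.

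H3K4me3 lay over nearly every ribosomal protein gene in both cultures. A gene counted as marked if a peak reached within 2500 bp of an NM start site. In LIF-ESCs 80 of 81 members were marked (98.8%, 95% Wilson interval 93.3 to 99.8%), against 67.8% of all genes. The same 80 were marked in Myc-ESCs, against 69.3% of all genes, Rpl3l there only through the peak of its neighbour Rps2. Intervals cover counting error only. The exception was Rpl32l (chr10:20208439-20209030, + strand), which had no peak in either culture. The other genes of the pathway were marked as widely, with all 78 mitochondrial ribosomal protein genes, all 17 genes of translation factors and other TOP mRNAs, all 24 genes of ribosome assembly factors and the 6 further ribosomal protein genes found in the annotation (among them Fau, Rack1 and Rpl22l1) carrying H3K4me3 in both cultures.

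Peaks at members were also among the highest-scoring of each list. The deposited score is the peak's p-value on a log scale and piles up at 3100. In LIF-ESCs 75 of the 80 marked members reached 3100, against 34.7% of all marked genes. In Myc-ESCs 77 of 80 did so, against 27.7%. High scores were not particular to members. Other genes of similar peak length, defined below, reached 3100 at 84.5% in LIF-ESCs versus 75.1% in Myc-ESCs. Genes of other TOP mRNAs did so at 100% in both cultures and assembly factor genes at 95.8% in both. Mitochondrial ribosomal protein genes had 59.0 and 53.8%. All 31 small subunit members were at or above 3100 in both. The members below it in LIF-ESCs were Rpl29 (2881), Rpl36a (2697), Rpl10l (2139), Rpl39l (518) and Rpl3l (79.6). In Myc-ESCs they were Rpl36a (2337), Rpl10l (912) and Rpl39l (517). Scores depend on depth, which is unknown, so they were not compared between the cultures.

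The peaks were long. The median length over members was 6822 bp in LIF-ESCs, with quartiles of 5687 and 9016 bp, where all marked genes had a median of 3363 bp. In Myc-ESCs it was 5985 bp, with quartiles of 5418 and 7386 bp, against 3530 bp for all marked genes. A peak of at least 5000 bp was found at 70 of 80 members in LIF-ESCs, against 18.0% of all marked genes, and at 67 of 80 in Myc-ESCs, against 15.5%. The median member had a longer peak than 91.8% of all marked genes, the same share in each culture. Large and small subunit members had nearly the same median, 6822 and 6821 bp in LIF-ESCs versus 5848 and 6050 bp in Myc-ESCs. The mitochondrial ribosomal protein genes, whose products make the ribosome of the mitochondrion, had medians of 3644 and 3523 bp, close to those of all genes. The 17 genes of other TOP mRNAs had 8017 and 6698 bp, and the 24 genes of assembly factors 5487 and 5402 bp.

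**Figure D1:**
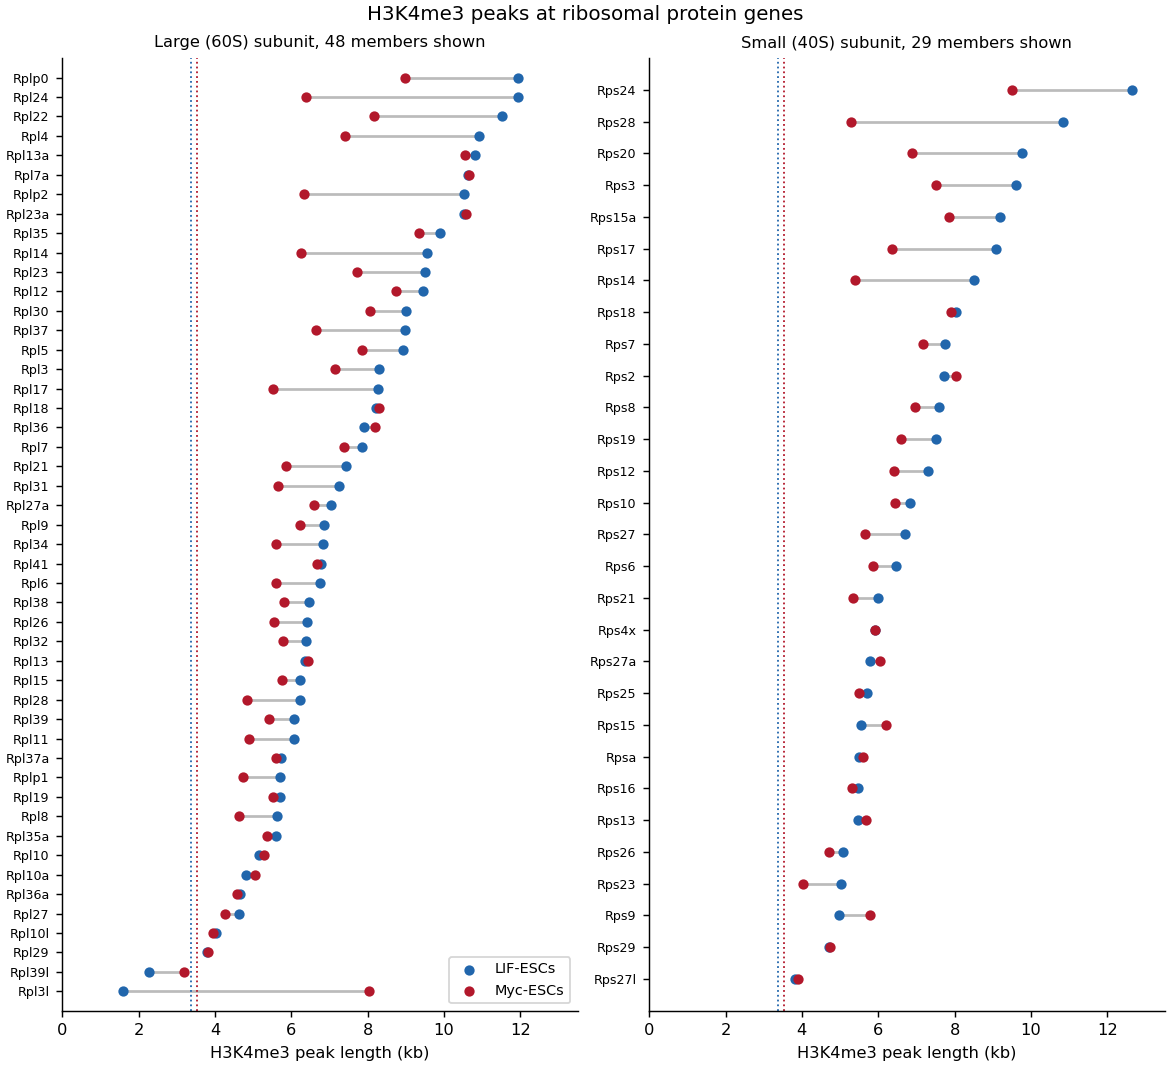
Length of the H3K4me3 peak (kb) at 77 of the 80 marked members in LIF-ESCs (blue) and Myc-ESCs (red), joined by a grey line, with the medians of all marked genes as dotted lines of the same colours. All blue points but those of Rpl3l and Rpl39l lie right of the blue line, and most red points lie left of their blue point. The red point of Rpl3l is the peak of the neighbouring Rps2 and not a peak over Rpl3l's start site.

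The 4 longest peaks in LIF-ESCs were those of Rps24, Rplp0, Rpl24 and Rpl22. Rps24, a small subunit protein mutated in Diamond-Blackfan anaemia, had a peak of 12657 bp in LIF-ESCs versus 9507 bp in Myc-ESCs. These ranked 187 and 153 in length among all peaks of their lists (32469 and 30345), and both covered the whole gene of 6283 bp. Rplp0 forms the base of the ribosomal stalk, which recruits translation factors. Its peak was 11943 bp long in LIF-ESCs versus 8972 bp in Myc-ESCs, and also covered the start site of Gcn1. Rpl24 was covered by 11931 bp in LIF-ESCs versus 6374 bp in Myc-ESCs. Rpl22, a large subunit protein needed in T-cell development, had 11527 bp in LIF-ESCs versus 8170 bp in Myc-ESCs. All 4 were shorter in Myc-ESCs, with lengths in LIF-ESCs that were 1.33, 1.33, 1.87 and 1.41 times those in Myc-ESCs.

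The shortest peaks in LIF-ESCs were those of Rpl3l, Rpl39l, Rpl29 and Rps27l, of which 3 are duplicated members, that is, copies of another ribosomal protein gene. Rpl3l, the muscle form of Rpl3, had a peak of its own of 1585 bp (score 79.6) in LIF-ESCs. In Myc-ESCs no peak covered its start site, and the window reached only the 8037 bp peak of Rps2, whose nearer edge lay at -2327 bp, upstream of Rpl3l's start. Rpl39l, a copy of Rpl39 used mainly in testis, had 2270 bp in LIF-ESCs versus 3191 bp in Myc-ESCs. Rps27l had 3831 and 3898 bp in the same order. Rpl10l, a retrogene copy of Rpl10 used in spermatogenesis, had 4020 and 3935 bp. Rpl29, which is not among the duplicated members, had 3796 and 3820 bp. The 4 duplicated members together had a median of 3051 bp in LIF-ESCs, under the median of all marked genes.

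Rplp1 and Rplp2, the acidic proteins of the stalk, had 5702 and 10524 bp in LIF-ESCs versus 4721 and 6324 bp in Myc-ESCs. Rpl5, Rpl11 and Rpl23 bind Mdm2, the ubiquitin ligase of p53, when ribosome assembly fails. Rpl5 had a peak of 8936 bp in LIF-ESCs versus 7853 bp in Myc-ESCs. For Rpl11 the lengths were 6077 and 4880 bp, and for Rpl23 9513 and 7711 bp. Rpsa, also known as the laminin receptor, had 5505 and 5606 bp. Rps27a, which is made as a fusion to ubiquitin, had 5784 and 6050 bp. X-linked Rps4x had 5917 bp in LIF-ESCs versus 5920 bp in Myc-ESCs, the smallest difference of all. The order of lengths over the 80 members was similar in the cultures, with a Spearman correlation of 0.77 across genes, given as a description since the values share their annotation and genes are not replicates.

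Most of the length lay downstream of the start site, over the gene body. The median peak reached 1721 bp upstream and 4938 bp downstream in LIF-ESCs, and 1722 bp upstream and 4055 bp downstream in Myc-ESCs. For all genes the medians in LIF-ESCs were 1344 and 1959 bp. Ribosomal protein genes are short, with a median of 3068 bp against 16691 bp for all genes, and the peak covered the whole gene at 74 of 80 members in LIF-ESCs, against 4.58% of all marked genes, and at 66 of 80 in Myc-ESCs, against 4.76%. Other genes of similar peak length were the 1223 whose geometric mean length over the cultures lay between the quartiles of the members (5554 to 8073 bp), and of these 10.7 and 9.32% were covered whole. Rps15a was covered over 62.6% of its length in LIF-ESCs versus 52.7% in Myc-ESCs, and Rpl5 over 81.9 and 70.7%. Peak length was weakly related to gene length across members (Spearman 0.33 in LIF-ESCs versus 0.32 in Myc-ESCs, over 80 genes). At 4 kb downstream of the start, 75.9% of members were still inside the peak in LIF-ESCs versus 51.9% in Myc-ESCs. For all genes these shares were 10.3 and 6.44%, and for mitochondrial ribosomal protein genes 5.2 and 1.3%.

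**Figure D2:**
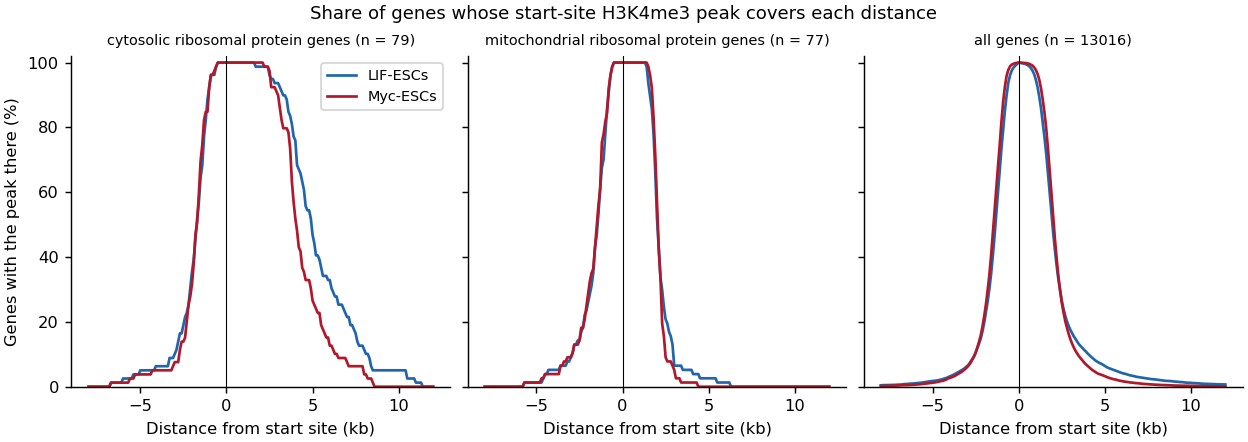
Share of genes (%) whose start-site H3K4me3 peak covers each distance from the start site (kb, negative upstream), for genes whose peak covers the start in both cultures, with LIF-ESCs in blue and Myc-ESCs in red. The members' curves lie close together upstream and separate more widely downstream, where 75.9% (LIF-ESCs) and 51.9% (Myc-ESCs) remain inside the peak at 4 kb.

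Many members shared their peak with another gene. The peak of 28 of 80 members (35.0%) also covered an NM start site of another gene in at least 1 culture, against 17.8% of all marked genes and 37.1% of the other genes of similar length. Examples were Rpl7 with Rdh10, Rpl35 with Arpc5l, and Rpl36 with Micos13. Members with the peak to themselves had a median of 6373 bp in LIF-ESCs versus 5636 bp in Myc-ESCs, while those with a shared peak had 8242 and 7395 bp. The 29 members that hold annotated snoRNA genes on their strand within the gene, as Rpl4 and Rpl7a do, had a median of 8259 bp in LIF-ESCs, and the 51 others had 6398 bp. These are descriptions of overlapping groups, and their part in the length was not tested.

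In Myc-ESCs the peaks of most members were somewhat shorter. The peak was shorter by any amount at 61 of 80 members, where 38.1% of all marked genes had a shorter peak. The median log2 ratio of length (Myc-ESCs over LIF-ESCs) was -0.12 over members, 0.06 over all 14067 genes marked in both cultures and -0.03 over the 78 mitochondrial ribosomal protein genes. The long peaks of other genes were shorter in Myc-ESCs as well. The 1223 other genes of similar length had a median log2 ratio of -0.13, and 70.9% of them were shorter. The 40 members within the same lengths had -0.14, with 32 shorter (80.0%). The median shift of the members was thus of the size found at other genes with peaks this long. All 17 genes of other TOP mRNAs had a shorter peak in Myc-ESCs, with a median log2 ratio of -0.30, and the 24 assembly factor genes had -0.04.

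**Figure D3:**
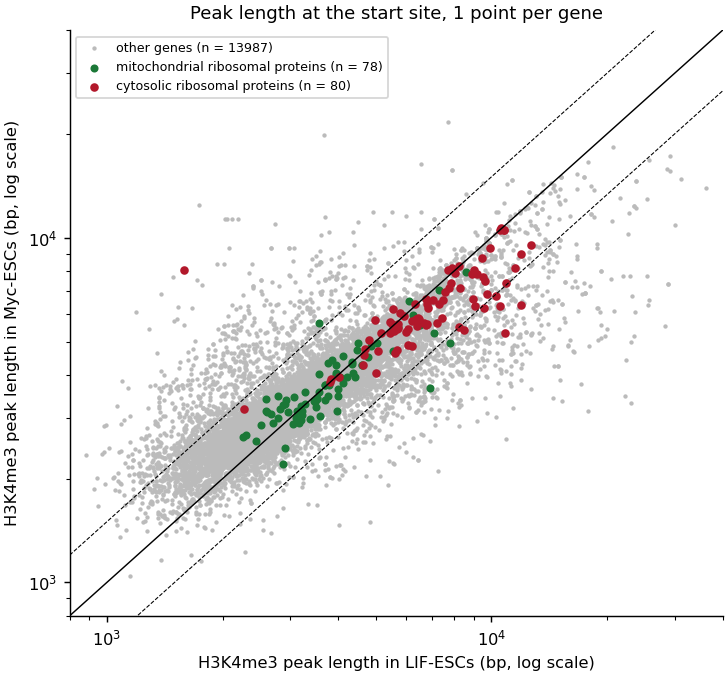
Length of the H3K4me3 peak in Myc-ESCs against LIF-ESCs (bp, log scales), 1 point per gene marked in both cultures, with members in red, mitochondrial ribosomal protein genes in green and other genes in grey. The solid line marks equal lengths and the dashed lines a 1.5-fold difference. Members gather at the long end, mostly just under the solid line, and Rpl3l is the red point at 1585 and 8037 bp.

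Few members passed a 1.5-fold difference in length. A peak at least 1.5-fold shorter in Myc-ESCs was found at 6 of 80 members, against 4.73% of all marked genes and 19.0% of the other genes of similar length. Among these were Rps28 (10832 bp in LIF-ESCs versus 5292 bp in Myc-ESCs), Rpl24 (11931 and 6374 bp), Rplp2 (10524 and 6324 bp), Rps14 (8505 and 5398 bp) and Rpl14 (9561 and 6243 bp), all structural proteins of their subunit. A peak at least 1.5-fold longer in Myc-ESCs was found at 1 of 80 members, against 6.22% of all marked genes. It was Rpl3l, where the longer peak is that of Rps2. After it came Rpl39l (1.41 times longer in Myc-ESCs), Rps9 (1.16 times) and Rps15 (1.12 times), which stayed under the limit.

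**Figure D4:**
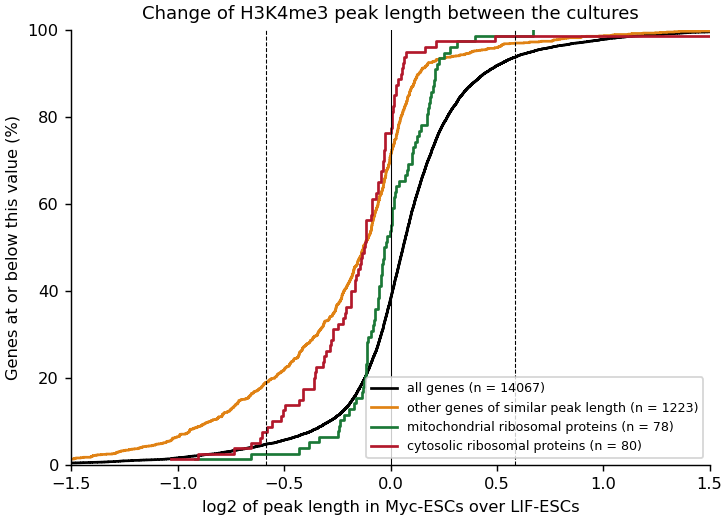
Cumulative share of genes (%) by the log2 ratio of H3K4me3 peak length in Myc-ESCs over LIF-ESCs, for members (red), other genes of similar peak length (orange), mitochondrial ribosomal protein genes (green) and all genes (black). Dashed lines mark a 1.5-fold difference, and values beyond 1.5 on either side, among them Rpl3l at 2.34, lie outside the axis. The red and orange curves cross 50% near -0.12 and -0.13, and the black one at 0.06.

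At 5 of these 6 shorter members the LIF-ESC peak was divided in the Myc-ESC list, and most of its bases stayed covered. The LIF-ESC peak of Rpl24 overlapped 2 Myc-ESC peaks separated by a gap of 824 bp, which together covered 91.1% of it. The separate peak, of 4593 bp, lay downstream, and the LIF-ESC peak also held the start site of Zbtb11 while the Myc-ESC peak of Rpl24 did not. At Rplp2 the gap was 411 bp and 95.4% stayed covered, and at Rpl14 296 bp and 96.6%. Rps28 had the widest gap, 1776 bp, with 83.2% covered. Only at Rps14, where 63.5% of the LIF-ESC peak was covered, did the Myc-ESC list hold a single peak. Peaks divided in this way were found at 10 of 80 members (12.5%), at 5.48% of the other genes of similar length and at 1.55% of all marked genes, while 1 of 80 had the reverse, 2 LIF-ESC peaks under 1 Myc-ESC peak, against 4.91 and 2.93%. Over all 80 members a median of 91.4% of the LIF-ESC peak was covered by Myc-ESC peaks, and over the other genes of similar length 90.9%. When peaks of a list up to 1000 bp apart were joined, 6 members (7.5%) were again at least 1.5-fold shorter in Myc-ESCs, against 6.94% of all marked genes and 22.6% of the other genes of similar length. Of those above only Rps28 and Rps14 were among these 6, beside Rpl27, Rps15a, Rpl21 and Rpl38. The names at this limit thus depend on how peaks are divided.

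The shorter peaks of Myc-ESCs differed mainly at the downstream edge. Among the 79 members whose peak covered the start in both cultures, the downstream edge was nearer the start in Myc-ESCs at 65 (82.3%), against 42.4% of all such genes and 68.5% of the other genes of similar length. The upstream edge was nearer at 40 (50.6%), against 33.7% of all genes and 582 of 1164 other genes of similar length. The median change from LIF-ESCs to Myc-ESCs was -559 bp at the downstream edge and -4 bp at the upstream edge. The other genes of similar length had -277 and -1 bp, and all genes 55 and 96 bp. At Rps24 the downstream edge lay at 11301 bp in LIF-ESCs versus 8556 bp in Myc-ESCs. At Rplp0 it lay at 10988 and 7940 bp while the upstream edge lay at 954 and 1031 bp. Rplp2 was an exception, with its upstream edge at 6038 bp in LIF-ESCs versus 1916 bp in Myc-ESCs and its downstream edge at 4485 and 4407 bp. There the Myc-ESC list had the gap of 411 bp given above. With joined peaks Rplp2 had 10524 bp in LIF-ESCs versus 10901 bp in Myc-ESCs, so its upstream edge reflects the division of the peak. With joined peaks the median change downstream was -482 bp, and the edge was nearer at 62 of 79 members (78.5%). The other genes of similar length had -341 bp and 69.8%, and all genes 52 bp and 43.0%.

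Polycomb peaks were nearly absent from ribosomal protein genes. Suz12 was at 0 of 81 start sites in LIF-ESCs (upper limit of the 95% Wilson interval 4.53%), against 12.8% of all genes, and at 1 of 81 in Myc-ESCs, against 15.7%. H3K27me3 was at 0 of 81 in LIF-ESCs, against 3.9% of all genes, and at 0 of 81 in Myc-ESCs, against 11.5%. The upper limit was again 4.53% for both, so the LIF-ESC count is not set apart from the 3.9% of all genes. Of the 1223 other genes of similar peak length, 82 had Suz12 in LIF-ESCs and 131 in Myc-ESCs. H3K27me3 was at 30 and 77 of them. The H3K27me3 list of Myc-ESCs is several times longer (16717 peaks, and 3120 in LIF-ESCs), and members stayed without a peak in both. A peak that was not called shows only that enrichment did not pass the caller's limit at these depths.

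The single member with a Polycomb peak was Rpl7, a large subunit protein. In Myc-ESCs 3 short Suz12 peaks lay 1082 to 2129 bp upstream of its start site, at chr1:16105515-16105710 (196 bp, score 59.9), chr1:16105855-16106207 (353 bp, score 93.3) and chr1:16106224-16106562 (339 bp, score 154). The divergent gene Rdh10, an enzyme of retinoic acid synthesis, starts 1449 bp from Rpl7, at position 16105882 within the second of these peaks. In LIF-ESCs neither gene had a Suz12 peak, and neither had H3K27me3 in either culture. The H3K4me3 peak over both starts was 7838 bp long in LIF-ESCs versus 7376 bp in Myc-ESCs. Whether Suz12 differed between the cultures here was not tested.

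Within 10000 bp of the start site, 2 members had a Suz12 peak in LIF-ESCs, Rpl22 (8654 bp) among them, or 2.47% against 14.3% of all genes. In Myc-ESCs 5 had one, among them Rpl7, Rpl38 (7134 bp) and Rpl30 (9661 bp), or 6.17% against 17.3%. No member had H3K27me3 within this distance in LIF-ESCs, against 5.3% of all genes, while 2 did in Myc-ESCs, Rps15 (7285 bp) among them, or 2.47% against 13.8%. Farther out, their median distance to the nearest Suz12 peak was 128485 bp in LIF-ESCs versus 100441 bp in Myc-ESCs, and for all genes 164943 and 128065 bp. Among the related genes listed above, those with a Polycomb peak at the start were Mrps23 (Suz12 in Myc-ESCs), Eef1d (Suz12 in both cultures), Rrs1 (Suz12 in both and H3K27me3 in Myc-ESCs) and Nob1 (H3K27me3 in Myc-ESCs).

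Ribosomal protein genes have many processed pseudogenes, which repeat their exons elsewhere in the genome, and the authors kept only reads with a single best match. Of all 31-base words in members' exons within 2500 bp of a start site, 64.2% occurred at more than 1 place in GRCm38, against 6.62% for mitochondrial ribosomal protein genes. Outside exons the shares were 8.09 and 6.34%. For Rps18 97.7% of exonic words were repeated, and for Rpl3l 0%. Words of this length could thus be placed uniquely at fewer positions in the members' exons than in their introns and flanks, and the part of this in peak length or in the divided peaks was not tested.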

How the data were processed

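Chromatin of LIF-ESCs and Myc-ESCs was immunoprecipitated for H3K4me3, H3K27me3 and Suz12, with 2 libraries for each of these 6 groups and 4 inputs. Per the submitters' notes and methods, the authors aligned reads to GRCm38 with Bowtie2 2.2.3, keeping unique best matches, and called peaks with MACS 1.4.2. They deposited 6 peak lists with positions and a score per peak, which is the p-value of MACS on a log10 scale. It grows with depth, which the lists do not hold, and whether libraries were pooled is not given in the sources used here. No p-value was computed.

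Genes were the 21000 symbols with an NM transcript (37867 transcripts) of RefSeq on GRCm38, and coordinates count from 1. At each gene the peak covering most of 2500 bp on either side of its start sites was taken. Members are counted beside all genes. Other settings tried were a minimum score of 100, lists of equal length, windows of 1000 and 5000 bp, 1 start site per gene, members without shared peaks, summed lengths, and ratios of 5 to 4 and of 2. The peak choice was tested on simulated data. Python 3.11.15, pandas 2.3.3, numpy 2.4.6, scipy 1.17.1 and matplotlib 3.10.9 were used.

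Members, lists and the genes named were chosen with earlier results of these data known. Named members have the 4 longest or shortest peaks in LIF-ESCs, the 4 largest or smallest ratios, no H3K4me3 or a Polycomb peak, or are the stalk, Mdm2-binding or duplicated proteins, Rpsa, Rps27a and Rps4x. The length limit of 5000 bp, genes of similar length, peak edges, joined peaks, motifs, sequences shown, repeated words and other members named were chosen after seeing the values. A few members are counted but not reported by name here.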

Additional observations from a re-analysis of the deposited data

How the results depend on the processing

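With 1 list for each culture and antibody, no library could be left out. No paired analysis was possible because the lists carry no replicate numbers. Of 108 values under another setting, 87 stayed within the limits used and 21 moved. The median log2 ratio of length stayed negative in all settings. Without the members that share a peak, 52 of 53 were marked in LIF-ESCs and 52 in Myc-ESCs, the Myc-ESC median was 5635.5 bp, 0 were at least 1.5-fold longer, 2 were 1.5-fold shorter, and 0 had Suz12 in Myc-ESCs. With H3K4me3 peaks up to 1000 bp apart joined, an alternative chosen after seeing the data, the Myc-ESC median was 6595.5 bp and 2 members were 1.5-fold longer (Rpl3l and Rps15). The single longer member of the report became 0 with a score of at least 100, with windows of 1000 or 5000 bp, with summed lengths and, in settings added after seeing the data, with only peaks that cover a start site and without the duplicated members and Rpl32l. At a ratio of 5 to 4, 2 members were longer and 18 shorter, against 15.7 and 8.96% of all genes, and at a ratio of 2, 1 was shorter, against 1.58%. With a window of 5000 bp, Suz12 was at 1 member in LIF-ESCs versus 2 in Myc-ESCs, and H3K27me3 at 1 in Myc-ESCs. With a window of 1000 bp, Suz12 was at 0 members in Myc-ESCs. The unknown depth limits any reading of a missing peak, of the score and of small differences in length.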
